A study of Homo sapiens with 5 samples.

Results

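The genes described here are 10 genes of the integrated stress response, chosen by name, out of 17651 genes that a probe with a single gene symbol measured on both array designs of the series. All 10 were found on both designs. They comprise the transcription factor genes ATF4, ATF5, DDIT3 and CEBPB and the target genes CHAC1, TRIB3, DDIT4, ASNS, SESN2 and VLDLR. The RNA came from MCF12A, a line of non-tumorigenic epithelial cells of the human breast, and was measured on 5 Affymetrix Gene ST arrays with 1 array per group. An ethanol culture (2.5% for 4 weeks) and an acetaldehyde culture (1% for 4 weeks) stand beside 1 untreated culture in one value table. A clone picked from soft agar after ethanol exposure, labelled with 4 weeks, stands beside its own control in a second table. All cultures were grown as monolayers in DMEM/F12 with horse serum, epidermal growth factor, hydrocortisone, insulin and cholera toxin, and no group differs from the others in these additions per the labels. The clone is a single clone, its ethanol is given in one place as 2.5% and in another as 2.5 mM, and its control, although labelled as unexposed, also carries a soft agar tag, so ethanol exposure and selection cannot be told apart in that pair.

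In the integrated stress response, one of several kinases phosphorylates the translation factor eIF2 when amino acids run short, unfolded proteins build up in the endoplasmic reticulum, haem is lacking or a virus replicates. General translation then falls while the mRNA of ATF4 is translated more, and ATF4 protein switches on genes for amino acid uptake and synthesis, for tRNA charging and for feedback. ATF4 is thus controlled largely at translation, which an array of RNA does not see, and its targets are the usual readout of the response. In epithelial cells the response is known for adjusting protein synthesis to the supply of nutrients and oxygen.

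ATF4 binds DNA with C/EBP partners at a composite element whose core was searched for here as TGATGNAA on both strands, in the 18 RefSeq promoter windows of the 10 members (GRCh38.p14, some genes with several starts, 250 bases before to 50 after each annotated start). The core occurs in 4.46% of 27305 genes in that collection, and 2 of the 10 members, CHAC1 and ASNS, had it in 1 window each. The cAMP response element TGACGTCA, a site of related factors, was found in none of the 10 and in 2.25% of all genes. The windows with a match are printed below on the strand of the gene with the match in capitals, together with that of DDIT3, which was at least 2-fold lower in both the ethanol and the clone comparison and had no match. In CHAC1 the match reads on the opposite strand and begins 209 bases upstream of the start, and in ASNS it reads along the gene and begins 68 bases upstream. A match is a string of letters and not a measured site, and no binding was assayed. No genome build is given for the array probes in the sources used here.
CHAC1, chr15:40953221-40953520, plus strand: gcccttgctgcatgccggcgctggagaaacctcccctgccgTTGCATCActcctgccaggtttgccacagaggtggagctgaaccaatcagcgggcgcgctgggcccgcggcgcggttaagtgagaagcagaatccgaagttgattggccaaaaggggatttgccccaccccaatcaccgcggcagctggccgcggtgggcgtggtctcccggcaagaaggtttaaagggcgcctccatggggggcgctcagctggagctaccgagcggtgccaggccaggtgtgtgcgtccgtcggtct
ASNS, chr7:97872359-97872658, minus strand: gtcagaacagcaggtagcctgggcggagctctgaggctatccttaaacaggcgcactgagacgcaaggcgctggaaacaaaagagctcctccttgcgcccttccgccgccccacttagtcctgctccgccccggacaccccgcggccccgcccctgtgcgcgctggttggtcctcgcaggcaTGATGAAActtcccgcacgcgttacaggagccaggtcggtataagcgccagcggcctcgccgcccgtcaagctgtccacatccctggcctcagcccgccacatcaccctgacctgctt
DDIT3, chr12:57520465-57520764, minus strand: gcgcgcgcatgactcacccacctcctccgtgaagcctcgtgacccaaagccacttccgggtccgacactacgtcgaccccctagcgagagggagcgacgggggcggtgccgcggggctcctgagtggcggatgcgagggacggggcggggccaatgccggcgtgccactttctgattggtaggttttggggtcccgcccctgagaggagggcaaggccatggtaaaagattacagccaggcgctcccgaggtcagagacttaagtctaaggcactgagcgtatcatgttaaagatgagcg

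The values are RMA intensities on a linear scale. The tables were treated as scaled apart, so differences were taken only within one table, and levels of different genes were not compared. Genes were counted if the brighter of the 2 arrays was at or above a floor, the median of all values of the table, which was 70.2 for the cultures in ethanol, in acetaldehyde and without treatment and 92.0 in the clone's pair. It measures no background signal. With 1 array per group no test was possible, and no difference below has a replicate check. Precision is limited by how few arrays there are. Ethanol and acetaldehyde share their control array. On their 3 arrays 26.0% of genes past the floor had equal values throughout (within 1e-06 on the log2 scale), against 0.196% of genes equal in the clone and its control, so small differences are not on one footing between the tables. Fewer cells of a type and less RNA per cell cannot be told apart in bulk RNA.

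The question of the first comparison was how 4 weeks in ethanol altered gene expression. Most of the stress response genes stood lower in ethanol, the targets CHAC1 and TRIB3 and the factor gene DDIT3 most of all, while CEBPB and DDIT4 stood slightly higher. Of 9 members past the floor, 3 were at least 2-fold lower and 0 at least 2-fold higher, where the shares among 11264 genes were 2.44% lower and 2.63% higher. At 1.5-fold, 6 of the 9 were lower, adding SESN2, ATF4 and ASNS, against 5.11% of all genes. The members' median log2 difference was -0.70, and that of all genes was 0. This median is the value of ATF4, which has a second, dimmer probe at 0.00. With that probe ATF4 did not reach 1.5-fold and the members' median was -0.62.

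**Figure D1:**
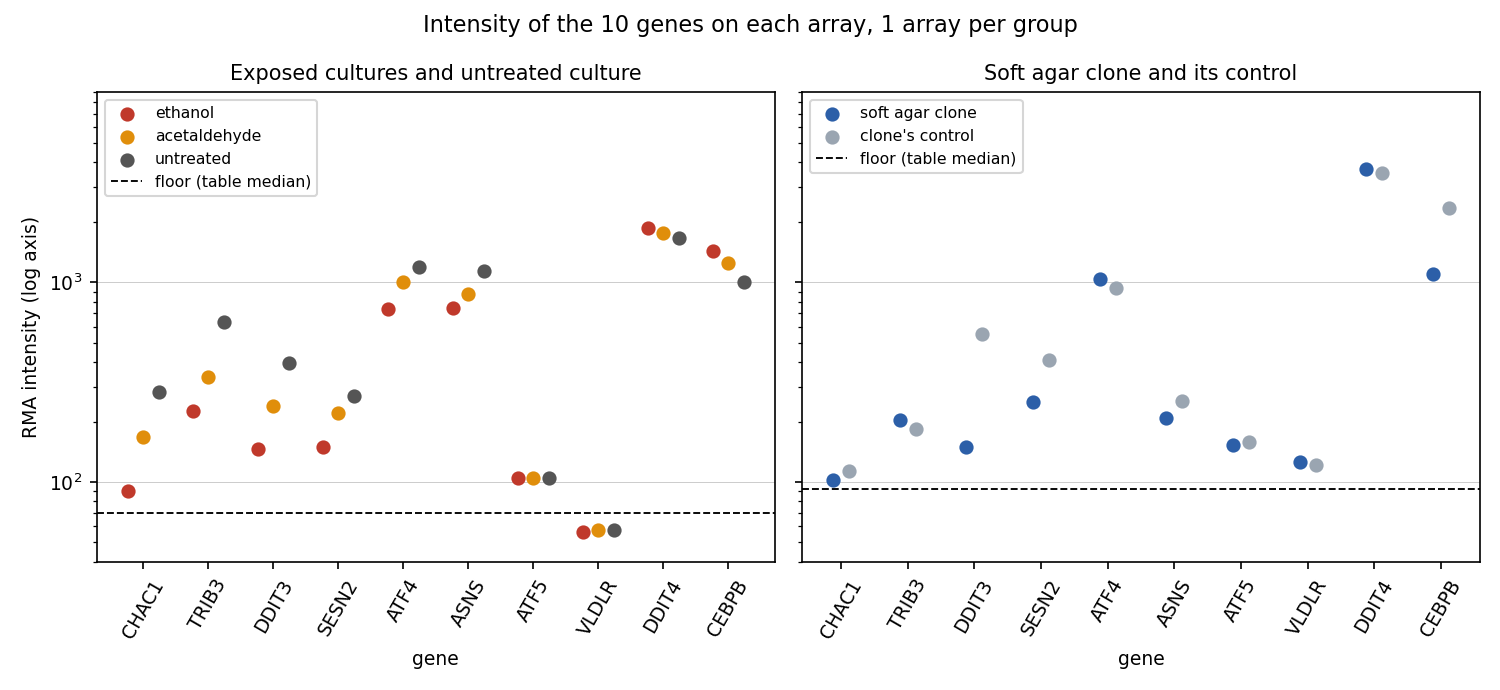
RMA intensity (log axis) of the 10 genes on each of the 5 arrays, 1 point per array, with the 2 tables in separate panels and the floor dashed. CHAC1 stands at 90.2 in ethanol, 169 in acetaldehyde and 281 in the untreated culture, while DDIT3 stands at 150 in the clone against 554 in its control.

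CHAC1 encodes an enzyme that breaks down glutathione and lies downstream of ATF4 and DDIT3. Its RMA intensity was 90.2 in ethanol and 169 in acetaldehyde, against 281 in the untreated culture. Ethanol was thus lowest and the untreated culture highest, with a 3.12-fold difference between them, and only 1.06% of genes past the floor had a difference as low or lower in ethanol. Acetaldehyde was 1.67-fold below the untreated culture, the 18th lowest of 11194 genes.

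TRIB3, a pseudokinase gene that is induced by ATF4 and DDIT3 and feeds back on ATF4, had 228 in ethanol and 338 in acetaldehyde, against 638 in the untreated culture. The untreated array was again the highest. The difference was 2.80-fold for ethanol and 1.89-fold for acetaldehyde, where TRIB3 was the 9th lowest of all genes past the floor.

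ASNS encodes asparagine synthetase, a classical target of amino acid limitation. It had 743 in ethanol and 881 in acetaldehyde, against 1142 in the untreated culture, or 1.54-fold and 1.30-fold lower. SESN2 encodes sestrin 2, a leucine sensor that restrains mTORC1, and it had 150 in ethanol and 222 in acetaldehyde, against 271 in the untreated culture. Both genes followed the order seen for CHAC1 and TRIB3, and for SESN2 the acetaldehyde array lay nearer to the untreated one, at 1.22-fold against 1.81-fold for ethanol.

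The remaining targets did not share this order. DDIT4 encodes REDD1, another inhibitor of mTORC1, which also responds to hypoxia and glucocorticoids. Its intensity was 1864 in ethanol and 1775 in acetaldehyde, against 1675 in the untreated culture, and its log2 differences of 0.15 and 0.08 were small. VLDLR, a lipoprotein receptor gene that ATF4 can induce, lay under the floor on all 3 arrays, at 56.3 in ethanol and 57.3 in both acetaldehyde and the untreated culture, so no fold is given.

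Among the transcription factor genes, DDIT3, which encodes CHOP, a factor linked to cell death under prolonged stress, had 146 in ethanol and 241 in acetaldehyde, against 396 in the untreated culture. Ethanol was 2.71-fold and acetaldehyde 1.64-fold lower. CEBPB encodes C/EBP-beta, a dimerisation partner of ATF4 with wider roles in inflammation and in the mammary gland. It went the other way, with 1435 in ethanol and 1248 in acetaldehyde, against 1005 in the untreated culture, a log2 difference of 0.51 in ethanol that 6.13% of genes equalled or exceeded. ATF5, a factor gene controlled at translation like ATF4, had 104.9 on all 3 arrays, which measures no difference in either direction. Such a tie held for 26.0% of all genes past the floor.

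ATF4 was measured by 2 probes with a single symbol, and these disagreed. The brighter one, which stands for the gene throughout, had 739 in ethanol and 1003 in acetaldehyde, against 1202 in the untreated culture, log2 differences of -0.70 and -0.26. The dimmer one had 245 on all 3 arrays. Such ties are common in this table, where 43.9% of all probes were equal between ethanol and the untreated culture, against 1.02% in the clone pair. The tie by itself thus does not show that ATF4 was unchanged. In the second table the brighter probe had 1040 in the clone against 933 in its control, a log2 difference of 0.16, while the dimmer one had 380 against 500.1, a log2 difference of -0.40. The direction of ATF4 RNA in the clone therefore depends on the probe, and its lower level in ethanol and acetaldehyde rests on the brighter probe.

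**Figure D2:**
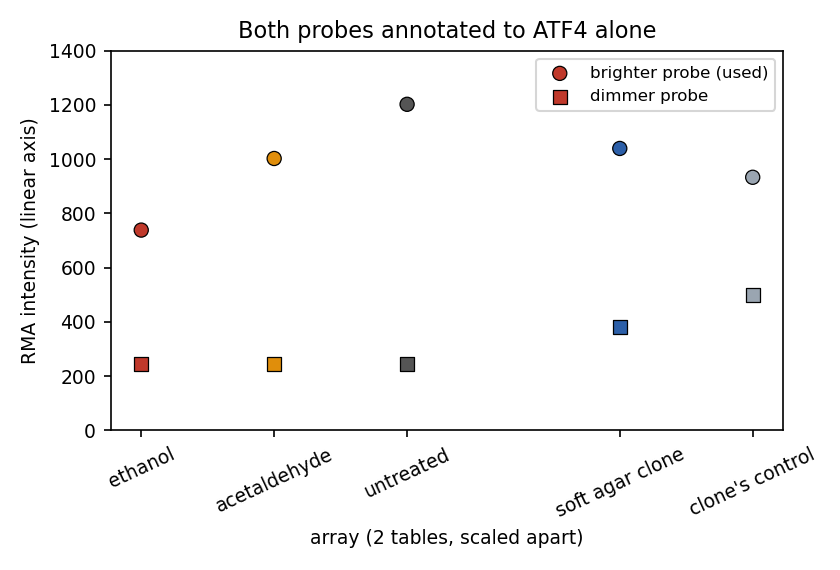
RMA intensity (linear axis from 0) of the 2 probes annotated to ATF4 alone, circles for the brighter and squares for the dimmer probe, 1 array per point. The brighter probe spans 739 to 1202 in the first 3 arrays while the dimmer one is at 245 on each, and the 2 probes differ in direction in the clone pair.

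The same question was put to acetaldehyde, the first oxidation product of ethanol. No member was 2-fold from the untreated culture in either direction, where 0.0536% of 11194 genes were that far below it and 1.03% that far above. At 1.5-fold CHAC1, TRIB3 and DDIT3 were lower, 3 of 9 members past the floor, against 0.411% of all genes. The members' median log2 difference was -0.29, beside 0 for all genes. The untreated array serves both comparisons, so one is not a repeat of the other.

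A direct comparison of acetaldehyde with ethanol does not use that array, although the doses differ in the labels. It does reuse the ethanol and the acetaldehyde array of the comparisons above, so it is no separate check of them. Among 9 members past the floor 6 were higher in acetaldehyde, 2 were lower and ATF5 was equal, where 31.4% of all genes were higher, 33.5% lower and 35.1% equal, with a median log2 difference of 0.44 beside 0 for all genes. None reached 2-fold, where 1.85% of 11221 genes were 2-fold or more above ethanol and 0.526% below. CHAC1 was 1.87-fold and DDIT3 1.65-fold higher in acetaldehyde than in ethanol, the 2 members past 1.5-fold, against 3.78% of all genes. CEBPB had a log2 difference of -0.20 and DDIT4 of -0.07. With the dimmer probe ATF4 was at 0.00 and the members' median was 0.25.

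**Figure D3:**
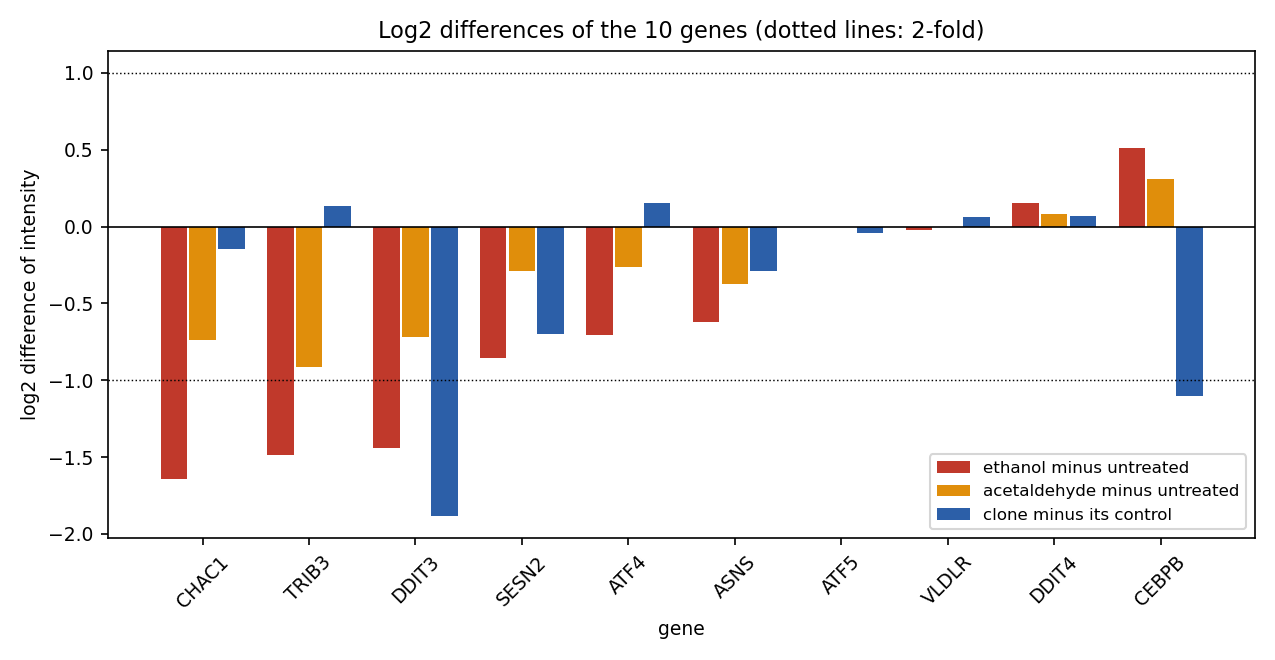
Log2 difference of RMA intensity of each of the 10 genes in the 3 comparisons with a control, as bars from 0 with no error since each is the difference of 2 arrays. DDIT3 is past the 2-fold line downward in ethanol (-1.44) and in the clone (-1.88), CHAC1 and TRIB3 are past it in ethanol (-1.64 and -1.49), and CEBPB has 0.51 in ethanol and -1.10 in the clone.

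The clone from soft agar was then set against its own control, and here DDIT3 and CEBPB stood lowest of the members. DDIT3 was 3.68-fold lower, with 150 in the clone against 554 in its control, and CEBPB was 2.15-fold lower, with 1099 against 2361. Thus 2 of 10 members were at least 2-fold lower and 0 were 2-fold higher, where 5.83% of 12262 genes were lower and 14.7% higher. The median difference over all probes of this pair was -0.17, and with differences centred on it CEBPB had -0.94 and was no longer 2-fold lower, while DDIT3 had -1.72.

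SESN2 had 253 in the clone against 411 in its control and was 1.62-fold lower, so that 3 of 10 members were at least 1.5-fold lower, where 15.2% of all genes were. CHAC1 had 102 in the clone against 113 in its control, and TRIB3 had 204 against 186. The pair that stood lowest in ethanol thus had log2 differences of -0.15 and 0.13 in the clone. Both genes already stood low on the control array of this pair, CHAC1 at percentile 55.1 and TRIB3 at 68.1. In the untreated culture of the first table they stood at percentiles 77.6 and 88.6. The control's CHAC1 value lay close to the floor of 92.0, so there was little room above it for a fall such as that in ethanol. ASNS had 209 against 255, DDIT4 had 3709 against 3542, ATF5 had 153.5 against 158 and VLDLR, above the floor in this table, had 127 against 122. None of these 4 genes reached 1.5-fold, and the members' median of -0.10 lay beside -0.02 for all genes. With ATF4 from its dimmer probe the members' median was -0.22.

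The genes nearest to CHAC1 and TRIB3 in their 3 log2 differences from control were looked up among 10444 other genes past the floor in all 3 comparisons. The smallest Euclidean distances from CHAC1 belonged to ITGA2, an integrin gene, at 0.35, to TRIB3 at 0.37 and to UPP1, a uridine phosphorylase gene, at 0.38. For TRIB3 they belonged to DNM3, a dynamin gene, at 0.34, to CHAC1 at 0.37 and to SLC7A11, a cystine transporter gene, at 0.38. These distances rest on 5 arrays, and 2 of the 3 differences share a control.

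A further 111 genes of the pathway and its surroundings were listed by role, of which 109 were measured beside ethanol and 107 beside the clone. Genes for amino acid synthesis and transport stood lowest in ethanol. All 21 of them past the floor were below the untreated culture, as were 35.1% of all genes, and 7 were at least 2-fold lower as deposited, where 2.44% of all genes were. One of the 7, CTH, is bounded below 2-fold by the floor. None of the 21 was above, and the median log2 difference was -0.56. SLC7A11, which imports cystine, had 281 in ethanol against 877 in the untreated culture and was 3.12-fold lower. SLC1A4, a transporter of neutral amino acids, was 2.90-fold lower at 113.5 against 329. The partners SLC7A5 and SLC3A2, which together form a leucine transporter, were 2.35-fold and 2.32-fold lower. The other 3 were the glycine transporter gene SLC6A9, 2.19-fold lower, the mitochondrial folate enzyme gene ALDH1L2, 2.10-fold lower, and CTH, an enzyme gene of cysteine synthesis. CTH lay under the floor in ethanol, at 54.4 against 115 in the untreated culture, and was at least 1.64-fold lower. In acetaldehyde 20 of the 21 were below the untreated culture, where 31.9% of all genes were, and 0 by 2-fold. Their median was -0.29, the furthest being SLC1A4 at -0.81.

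Genes for tRNA charging showed a smaller difference in ethanol. Of 15 past the floor (14 synthetases and the tRNA exporter gene XPOT), 11 were below the untreated culture, 2 above and 2 equal. Of all genes, 35.1% were below, 34.2% above and 30.7% equal. Among the 15 genes 0 reached 2-fold, and the median log2 difference was -0.37. The lowest were TARS1 at -0.79 and SARS1 at -0.77. In acetaldehyde the median was -0.12, with SARS1 at -0.34. Other genes of the response were divided in ethanol, with 12 of 19 below the untreated culture, 5 above and 2 equal. At least 2-fold lower were 2 of the 19, where 2.44% of all genes were, and 0 were 2-fold higher. Their log2 differences ran from -1.35 to 0.57, with a median of -0.11. NUPR1, a chromatin-binding stress factor gene, was 2.56-fold lower at 480 against 1228, and GDF15, which encodes a secreted stress hormone, was 2.21-fold lower at 635 against 1401. ATF3, a factor gene induced by ATF4, had -0.11 in ethanol, but lay close to the floor of 70.2 on both arrays, at 70.6 against 76.3.

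The endoplasmic reticulum chaperones respond to unfolded proteins through ATF6 and XBP1 and not mainly through ATF4. They were listed with further unfolded protein response genes that are not chaperones, such as ATF6, XBP1, EDEM1 and SEL1L. As a whole this list did not stand lower in ethanol. Of 21 past the floor, 13 were above the untreated culture, 3 below and 5 equal, where 34.2%, 35.1% and 30.7% of all genes were. The median log2 difference was 0.04, and 0 reached 2-fold. HSPA5, the gene of the chaperone BiP, had 0.14, and PDIA6 and HSP90B1 had 0.57 and 0.43. XBP1 itself had -0.37. The list of eIF2 kinases, phosphatase subunits and eIF2 and eIF2B subunits also held EIF2A, DELE1 and IMPACT. Its 20 genes stayed within -0.39 and 0.25 in ethanol and within -0.29 and 0.17 in acetaldehyde, with medians of 0. The kinase gene EIF2AK3, which encodes PERK, had 0.16 in ethanol, and EIF2AK4, which encodes GCN2, had 0.04.

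**Figure D4:**
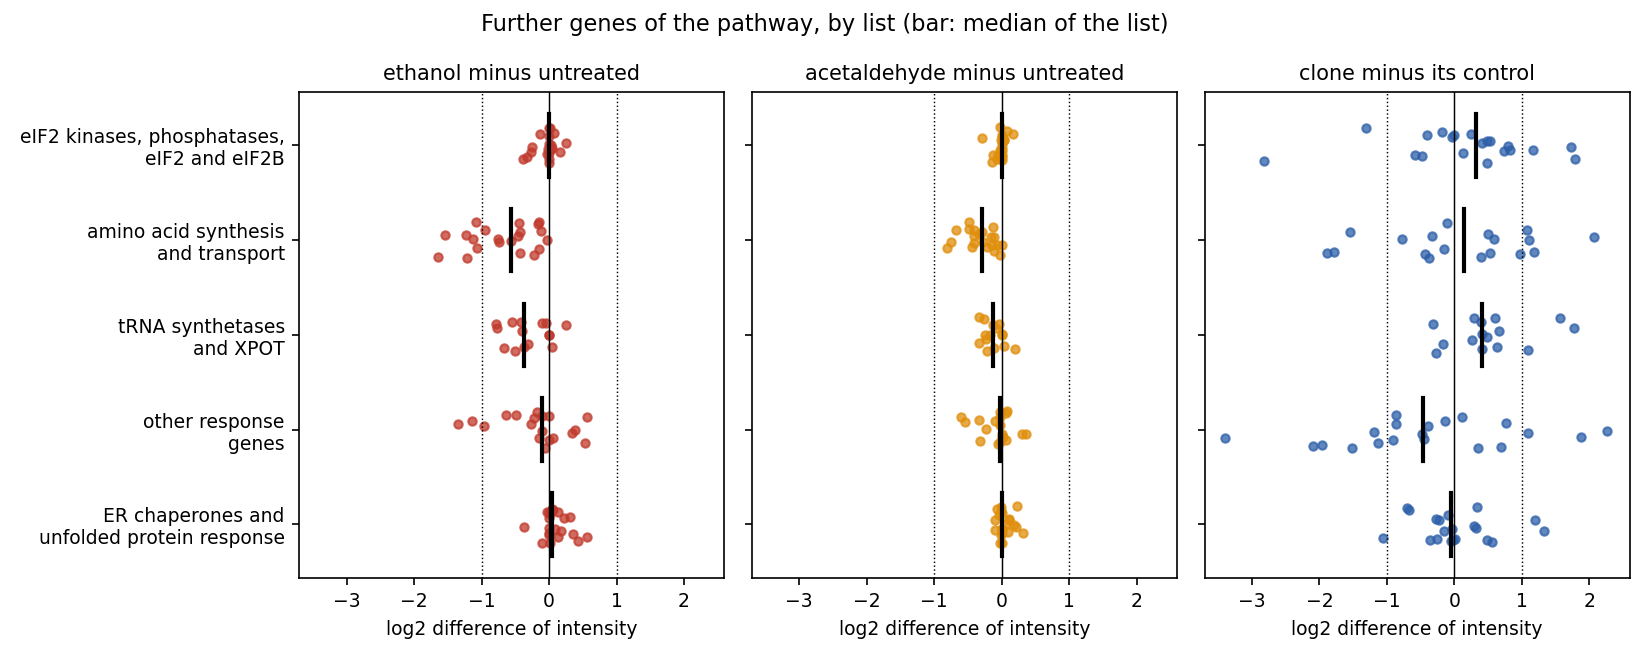
Log2 difference of RMA intensity of the further pathway genes past the floor, 1 point per gene, by list (rows) and comparison with control (panels), with the list median as a black bar. In ethanol the amino acid genes lie below 0 with a median of -0.56. The chaperone and unfolded protein response genes lie near 0 with a median of 0.04. In the clone each list spreads to both sides.

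In the clone the amino acid genes went both ways. Past 2-fold, 14.7% of all genes of this pair were higher and 5.83% lower, and the counts that follow stand beside those shares. Among 18 amino acid genes 4 were at least 2-fold higher and 3 were lower, and the median log2 difference was 0.15. The transporters SLC1A5, SLC7A5 and SLC3A2 were 3.70, 3.44 and 2.92-fold lower, whereas PSPH and PHGDH, enzyme genes of serine synthesis, were 4.19-fold and 2.27-fold higher, and ALDH1L2 and the glutamine transporter gene SLC38A1 2.11-fold and 2.14-fold higher. SLC7A11 had 0.39. Of 15 tRNA charging genes 3 were at least 2-fold higher and 0 lower, namely LARS1 at 3.43-fold, IARS1 at 2.97-fold and WARS1 at 2.14-fold, a count near the share of all genes. Of these 15 genes 12 were above the control, where 49.0% of all genes were, and the list median was 0.42. Among the eIF2 genes, PPP1R15A (GADD34), which encodes the inducible subunit that directs a phosphatase to eIF2 and is itself a target of ATF4 and DDIT3, was 7.03-fold lower at 266 in the clone against 1868 in its control. Its constitutive relative PPP1R15B was 2.49-fold lower. EIF2B1 and the kinase genes EIF2AK2, which encodes PKR, and EIF2AK3 were 3.45, 3.32 and 2.25-fold higher. Of the 20 genes of this list 3 were thus at least 2-fold higher, near the share of all genes, and 2 lower.

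Among 20 other response genes, the clone had 6 at least 2-fold lower and 3 higher, where 5.83% of all genes were lower and 14.7% higher, and the median log2 difference was -0.47. In the clone ATF3 and the proapoptotic gene PMAIP1 did not reach the floor, at 40.5 against 428 and 64.1 against 273 in its control, so ATF3 was at least 4.66-fold lower and PMAIP1 at least 2.97-fold. BCL2L11, NUPR1, GDF15 and KLHL24 were 3.89, 2.85, 2.28 and 2.18-fold lower. The higher genes were STC2, a secreted glycoprotein gene, at least 2.84-fold higher, and the sestrin genes SESN3 and SESN1, at least 2.59-fold and 2.14-fold higher. Both are paralogs of SESN2, which was 1.62-fold lower. The pseudokinase gene TRIB2, a paralog of TRIB3, was 2.17-fold higher in ethanol and 2.11-fold higher in the clone. Among 11 paralogs of the members past the floor it was the one that reached 2-fold in ethanol, where 2.63% of all genes were that far higher. In the clone 3 of 12 paralogs were at least 2-fold higher and 1 lower, beside 14.7% and 5.83% of all genes. The paralogs share ATF3, CEBPG, SESN1 and SESN3 with the other response genes. Of 20 chaperone and unfolded protein response genes 2 were higher in the clone, EDEM1 and SEL1L of protein degradation at 2.51-fold and 2.30-fold, and 1 was lower, the cochaperone gene DNAJB9 at 2.08-fold, counts no higher than the shares of all genes.

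Markers of cell identity moved on the same arrays. Of 12 listed mammary epithelial markers 10 were measured, and all 10 reached the floor on every array except that of the clone, where 6 did. Their summed intensity was 9347 in ethanol and 16115 in acetaldehyde, against 15846 in the untreated culture, and 10476 in the clone against 28039 in its control. Their median log2 difference was -1.56 in ethanol, with 6 of 10 lower and 1 higher by 2-fold or more. It was -0.03 in acetaldehyde, with 0 past 2-fold, and -2.81 in the clone, with 7 of 10 lower and 0 higher. Of all genes, 2.44% were that far lower and 2.63% higher in ethanol, and 5.83% and 14.7% in the clone. In acetaldehyde these shares were 0.0536% and 1.03%. The summed level of 5 adipocyte markers was 5004 in ethanol and 809 in acetaldehyde, against 330 in the untreated culture, and 5696 in the clone against 793 in its control, carried by FABP4 and CD36, while ADIPOQ and LEP lay under the floor on all 5 arrays. The 7 fibroblast markers summed to 539.7 in ethanol and 542 in acetaldehyde, against 467 in the untreated culture, and to 1684 in the clone against 811 in its control, with LUM and PDGFRA under the floor throughout. Endothelial markers were under the floor on every array other than KDR at 275 in the clone. Of 4 measured leukocyte markers PTPRC and CD3E lay under the floor throughout, and the list summed to 1624 in ethanol and 1195 in acetaldehyde, against 861 in the untreated culture, carried by CD68, and to 1177 in the clone against 1248 in its control. The part of these differences in the stress response results was not tested.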

How the data were processed

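RNA of 5 MCF12A cultures was hybridised to Affymetrix Gene ST arrays, 1 per group. RMA, per the submitters' processing notes, gave the deposited values, which are intensity in linear units; its version and genome build are not given in the sources used here. They come as 2 tables of 33297 probes, with 3 and 2 arrays and array medians between 69.98 and 94.0, taken as scaled apart. Per the labels, array designs differ between 1-week and 4-week exposures, yet the clone, labelled with 4 weeks, does not share the design of the ethanol and acetaldehyde arrays; this was not resolved.

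Log2 of each intensity was taken. Probes were named through each design's annotation (19181 and 19460 probes with 1 symbol, 2055 and 1754 with several, 12061 and 12083 unlisted); 19143 and 19429 matched a RefSeq gene and 0 were renamed. Probes with several symbols were not used. Of a gene's probes with 1 symbol, the one brightest on average over its table was used. Log2 differences were taken within a table, and genes at or past 2-fold (or 1.5-fold, where stated) were counted among those whose brighter array reached the table's median. Where the dimmer array lay under that floor, the brighter value was divided by the floor and the fold written as a lower bound. No test was run, since each group has 1 array. Counting at 2-fold was run on simulated data with changes set past that limit and without applying the floor, so the floor rule was not tested.

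The 10 genes were given by name, and the lists and the rule for named genes were chosen with earlier results of these data known. Every member is described; of each further list, genes past 2-fold in a comparison with a control and at least 2 by size are named, and HSPA5, ATF3, EIF2AK3, EIF2AK4 and XBP1 in ethanol, and SLC7A11 in the clone, were singled out after their values were seen. Alternatives covered the probe rule, centring, quantile normalisation, the floor and the fold. Python 3.11.15, numpy 2.4.6 and pandas 2.3.3 were used.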

Additional observations from a re-analysis of the deposited data

Results flagged for a closer look

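CEBPB had a log2 difference of 0.51 between ethanol and the untreated culture and of -1.10 between the clone and its control. It was singled out because it was the one member with opposite directions of at least 0.5 in these comparisons. Each value comes from 2 arrays, the pairs sit on different array designs, and the difference between the pairs was not tested.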

How the results depend on the processing

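No paired analysis was possible because each group has 1 array. Of 320 log2 differences of single members under 8 alternatives, 319 stayed within 1.5-fold of the reported value and 0 past 2-fold changed direction. Many of the 320 could not move. Removing the floor, setting it at the 75th percentile and changing the fold limit alter no log2 difference. Centring alters only the clone pair, and the probe rules alter only ATF4. The value that moved was ATF4 in ethanol, which is 0.00 from its dimmer probe, an alternative added after the data were seen. With a limit of 1.5-fold the members lower in ethanol numbered 6, in acetaldehyde 3, and those higher in acetaldehyde than in ethanol 2. All genes lower and higher then numbered 576 and 597 in ethanol, 46 and 242 in acetaldehyde, 1867 and 3144 in the clone, and 249 and 424 in acetaldehyde against ethanol. Centring left 1 member 2-fold lower in the clone, DDIT3. With the floor at the 75th percentile, which tests fewer genes, the members' median in the clone was -0.70 over 5 members, 73 genes were higher in acetaldehyde, and 37 were lower in acetaldehyde than in ethanol. The other 145 of 160 counts and medians stayed within 1.5-fold. Many of these could not move either. The fold limit alters no median, the ATF4 probe left the counts of all genes as they were, and centring alters only the clone pair. Signal close to the floor limits CHAC1 in ethanol and in the clone pair, and VLDLR, ATF5 and the further gene ATF3 on the first 3 arrays.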
